A study of Mus musculus with 12 samples.

Results

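The genes described here are the matrix metalloproteinases (MMPs), the ADAM and ADAMTS proteases and the tissue inhibitors of metalloproteinases (TIMPs) in the lungs of *miR-30a*-/- mice. They were taken as all protein-coding genes of the count table whose symbol begins with Mmp, Timp, Adam or Adamts followed by a digit. This gave 79 of 55487 genes: 22 MMP, 4 TIMP, 34 ADAM and 19 ADAMTS genes. The 1 gene whose symbol fits but which the table gives another biotype, *Mmp1a*, was left out.

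MMPs are zinc-dependent enzymes that cut collagens, elastin, laminins and other matrix proteins, and most are made as inactive precursors. ADAMs are membrane-bound relatives that release the outer parts of cytokines, growth factors and adhesion molecules from the cell surface, whereas ADAMTS enzymes are secreted and cut proteoglycans, procollagens and von Willebrand factor. TIMPs bind the active site of these enzymes and block it. In the lung the balance of these proteins shapes the matrix in which alveoli and vessels form, and it has been studied widely in neonatal oxygen injury.

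All 12 animals were C57BL/6J mice lacking *miR-30a* (genotype miR30a-/-), a line made by CRISPR/Cas9 deletion, so each group and each control carried the deletion. They formed 4 groups of 3: males and females exposed to hyperoxia (95% FiO2) from postnatal day (PND) 1 to PND 5, and males and females kept in room air (21% FiO2). Whole lungs were taken on PND 21, after recovery in room air. Lungs are named by group and animal number as the labels give it (room air males 1, 4 and 5, room air females 2, 5 and 6, hyperoxia-exposed males 1, 2 and 3, hyperoxia-exposed females 2, 4 and 5), and a shared number does not pair animals.

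The counts on genes summed to between 8763033 and 16741694 in a lung, so that a floor of 3 counts stood at 0.179 to 0.342 CPM, which is counts scaled to the normalized library size. In 3 lungs, room air females 2 and 5 and hyperoxia-exposed male 1, the most counted gene, *Gm10800*, took 6.04% to 9.52% of the counts, against 15.04% to 23.8% in the other lungs. Reads that fall on genes silent in lung served as background: their density per kilobase was taken in each lung on 1490 receptor genes of smell and pheromone sensing, and the receptor share of all counts ran from 0.410% to 0.945%. The 11 markers of lung epithelium summed to 8006 to 21900 CPM per lung. Markers of skeletal muscle summed to at most 668 CPM in each lung except 1 room air male, at 6576 CPM.

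The deleted miRNA has a seed, bases 2 to 8, that other miRNAs share. The mature sequences with this seed that were found in RefSeq (GRCm38.p6) are shown, the deleted one first, because they share the seed searched for in the members. The set is not the whole miR-30 family. Capitals mark the seed.
mmu-miR-30a-5p: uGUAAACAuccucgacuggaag
mmu-miR-30c-5p: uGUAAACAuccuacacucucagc
mmu-miR-30e-5p: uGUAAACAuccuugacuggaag
mmu-miR-384-5p: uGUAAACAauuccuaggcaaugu

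A complete match to the seed followed by A (UGUUUACA, sense strand only) was looked for in the longest annotated 3′ UTR of each gene. It was found in 7 of 79 members (8.86%), beside 1426 of 20921 protein-coding genes (6.82%), and the median UTR length was 1050 bases for the members and 963 for all. A match is a description of sequence, not a shown target. The 7 matches are printed with the 8 matching bases in capitals, since these are the members whose seed match is followed by A. *Adam28*, *Adamts17* and *Adamts9* held a match to the seed without this A and are not printed.
Timp3: aauuuuguagcacUGUUUACAguuuucc
Adam9: aaguccucuagaaUGUUUACAuuuacua
Adam12: uggcauggcauguUGUUUACAucgggaa
Adam19: uccuccuauugauUGUUUACAauauuug
Adam22: auuuaagaacaacUGUUUACAugugaca
Adam1b: uucaauggacaggUGUUUACAuacuauu
Adamts6: cgagacuccuucgUGUUUACAuccccac

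In *Timp3* the match lay on the plus strand of chr10:86349372-86349379, at base 3470 of a 3604-base UTR, and in *Adam9* on the minus strand of chr8:24949948-24949955, at base 962 of 1306. All 7 genes had background shares under 50%. Their median log2 change under hyperoxia in both sexes was −0.091, and that of the 49 other members under this share was 0.032. These others include *Adam28*, *Adamts17* and *Adamts9*. Lungs with *miR-30a* were not analysed here, so these values do not bear on its loss.

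The inhibitors and the gelatinase *Mmp2* stood highest. Per kilobase of exon, *Timp2* averaged 75.1 CPM over the 12 lungs (lowest 49.3, highest 115). *Timp3*, which stays bound to the matrix, averaged 45.6 CPM per kilobase (26.1 to 71.3). *Mmp2*, which cuts denatured collagen and type IV collagen, averaged 42.2 CPM per kilobase (24.7 to 62.5), a range that overlapped that of *Timp3* widely. *Adamts1*, a secreted proteoglycanase, was the next at 28.9 CPM per kilobase. By contrast, *Timp1* averaged 4.93 CPM per kilobase and *Timp4* 2.51, while the receptor genes that define the background stood at 1.20 CPM per kilobase (0.725 to 1.58 among lungs).

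**Figure D1:**
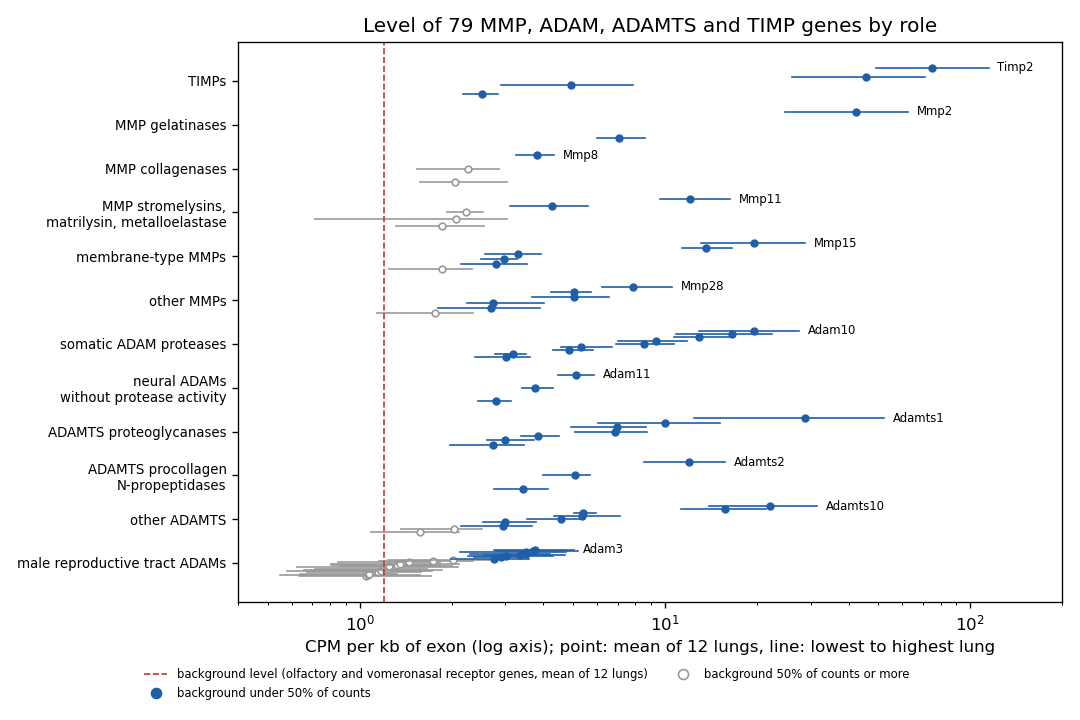
Level of the 79 genes by role, as CPM per kilobase of exon on a log axis, each point the mean of 12 lungs and each line the lowest to the highest lung. The dashed line marks the background level of 1.20 CPM per kilobase. *Timp2* is the highest gene at 75.1, and the open points are the 23 genes with a background share of 50% or more.

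Many members lay near this background. For 23 of 79 the expected background made up 50% or more of the counts, and for 50 of 79 it made up 25% or more. The share was lowest in *Timp2* (1.52%), *Timp3* (2.49%), *Mmp2* (2.70%) and *Adamts1* (3.89%). Among the 22 ADAMs known from the male reproductive tract, where they serve sperm maturation and egg binding, 14 were at 50% or more, and the shares ran from 31.8% in *Adam3* to 114% in *Adam25*, both ends picked after the values were seen. Of the 57 other members, 34 had a share below the lowest of these 22. For the remaining ones the share overlapped that of genes not known from lung.

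Several enzymes well known from lung injury had shares of 50% or more. *Mmp12*, the macrophage elastase, had a background share of 64.3%, and its level was 9.53 to 18.5 CPM across lungs. *Mmp7*, matrilysin of epithelium, had 59.1%, *Mmp13*, a collagenase, 57.8%, and *Mmp10*, a stromelysin, 52.7%. *Timp4*, at 47.1%, was under 50% but within the range of the reproductive tract ADAMs. Below that range were *Mmp8*, the neutrophil collagenase, at 30.7%, *Mmp3* at 27.4%, *Timp1* at 23.9% and *Mmp9* at 16.5%. The paralogs *Adam26a* and *Adam26b*, *Adam6a* and *Adam6b*, and *Adam24*, *Adam25*, *Adam34* and *Adam39* are alike in sequence, so how the counting divided reads among them is uncertain.

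Under hyperoxia 0 of 79 members were called over both sexes, where a call needed a fold change above 1.5 and an adjusted p (edgeR quasi-likelihood test, Benjamini-Hochberg) below 0.05. All 79 had passed the filter on low counts. Over all 45828 genes tested, 19 were called, or 0.0415%, and leaving out 1 lung moved this count to between 3 (without hyperoxia-exposed female 5) and 37 (without hyperoxia-exposed male 1), while 0 members were called each time. RUVr with 1 factor, a method described further on, called 53 genes higher and 39 lower, and 0 members. At an unadjusted p under 0.05, 0 members were higher and 2 lower, *Adamts1* and *Mmp23*, beside 5.2% of all genes. These member counts were 3 and 7 without hyperoxia-exposed male 1, 4 and 4 without room air female 6, and 0 and 0 without hyperoxia-exposed female 4. In 0 of 79 did the 6 hyperoxia-exposed lungs lie apart from the 6 room air lungs, beside 0.214% of all genes. The 56 members with a background share under 50% had a median log2 change of 0.0098, with 28 of 56 higher. It was below 0 with TMM (−0.011), DESeq2 (−0.033, 23 of 56 higher), no low-count filter (−0.0082) and the receptor share as covariate (−0.0029). After background subtraction it was 0.051 (33 of 56 higher). With 1 lung left out the median ran from −0.029 (without hyperoxia-exposed female 2) to 0.025 (without room air female 5), and it was below 0 also without room air male 1 (−0.020), room air female 2 (−0.0013), room air female 6 (−0.012), hyperoxia-exposed male 1 (−0.017) or hyperoxia-exposed female 5 (−0.010). This median was 0.031 over all genes and −0.049 over the 16419 protein-coding genes under the same share. In whole lung, fewer cells of a type and less RNA per cell cannot be told apart.

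Among the inhibitors, *Timp2*, which also helps to activate pro-MMP2 at the cell surface, ranged from 192 to 360 CPM after hyperoxia (median 252) and from 244 to 448 CPM in room air (median 294). The groups overlapped, with a log2 change of −0.28 (adjusted p = 0.927, edgeR). Over 21 alternatives the adjusted p ran from 9.4e-05, with RUVr (removal of unwanted variation from residuals), to 1.00, at fold changes that stayed under 1.5. Its 2 highest room air lungs were females 2 and 5 and its highest hyperoxia-exposed lung was male 1, the 3 lungs with a low *Gm10800* share. Without these 3 lungs the log2 change was −0.12, and without hyperoxia-exposed male 2 it was −0.18. With the receptor share of each lung as covariate it was −0.084. *Timp3* ranged from 220 to 484 CPM after hyperoxia (median 371) and from 213 to 581 CPM in room air (median 362), a log2 change of −0.019 (adjusted p = 0.996, edgeR) whose sign turned under 8 alternatives. *Timp4* had medians of 15.3 CPM after hyperoxia and 14.6 CPM in room air. *Timp1*, an inhibitor often induced in injured tissue, stood at 2.58 to 6.96 CPM after hyperoxia and 2.61 to 5.06 CPM in room air (log2 change 0.15, adjusted p = 0.932, edgeR), and the change was 0.071 without hyperoxia-exposed male 2. The values of *Timp1* fell into separate ranges by sex, as described further on.

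**Figure D2:**
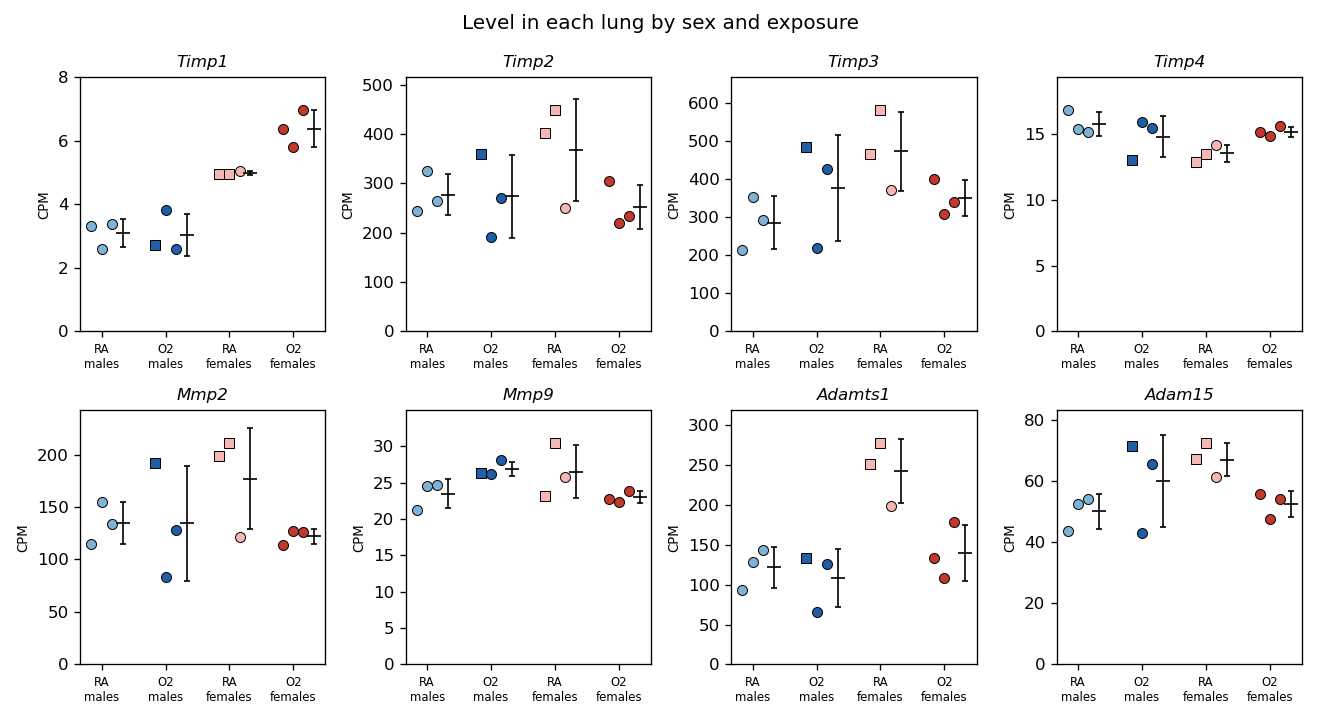
CPM in each of the 12 lungs for 8 genes, by sex and exposure (RA, room air; O2, hyperoxia). Points are lungs, squares the 3 lungs with a *Gm10800* share under 10%, and bars the mean ± SD of 3 lungs. In *Timp2*, *Timp3* and *Mmp2* the squares are the highest points of their groups, and in *Timp1* all female lungs, from 4.94 CPM, lie above all male lungs, up to 3.81 CPM.

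Of the gelatinases, *Mmp2* ranged from 83.2 to 192 CPM after hyperoxia (median 127) and from 115 to 211 CPM in room air (median 145). The log2 change was −0.27 (adjusted p = 0.927, edgeR), and −0.17 without the 3 lungs. It was −0.44 without hyperoxia-exposed male 1, −0.14 without hyperoxia-exposed male 2 and −0.074 with the receptor share as covariate. With RUVr its adjusted p was 0.0291 at a fold under 1.5, and the other alternatives gave values up to 1.00. *Mmp9*, which neutrophils and macrophages release, ranged from 22.4 to 28.1 CPM after hyperoxia and from 21.3 to 30.4 CPM in room air, and these ranges coincided almost entirely. In males alone it stood at 26.2 to 28.1 CPM after hyperoxia and 21.3 to 24.7 CPM in room air (log2 change 0.19). These male groups did not overlap, as in 6.62% of all genes. The groups of females overlapped (log2 change −0.20), and *Mmp9* was called in neither sex. The 12 neutrophil markers summed to 114 to 162 CPM after hyperoxia and 116 to 198 CPM in room air. *Mmp8* ranged from 7.89 to 10.01 CPM after hyperoxia and from 8.91 to 10.5 CPM in room air.

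The other MMPs overlapped in the same way. *Mmp14*, the membrane-type enzyme that activates pro-MMP2, stood at 68.3 to 98.8 CPM after hyperoxia and 67.9 to 98.9 CPM in room air. *Mmp15*, another membrane-type MMP, stood at 70.6 to 134 CPM and 86.9 to 156 CPM. *Mmp23*, a short MMP without a hemopexin domain, had medians of 10.2 CPM after hyperoxia and 12.8 CPM in room air. Its log2 change was −0.27 (unadjusted p = 0.0429, adjusted p = 0.927, edgeR). *Mmp24* and *Mmp17*, also membrane-type, had log2 changes of 0.19 and 0.16 (adjusted p = 0.927 each, edgeR), and of 0.063 and 0.070 without the 3 lungs. *Mmp11*, *Mmp19*, *Mmp25* and *Mmp28* all had overlapping ranges, with medians of 32.9, 18.1, 18.5 and 28.3 CPM after hyperoxia and 32.7, 16.5, 16.8 and 31.3 CPM in room air.

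Of the 9 somatic ADAM proteases, 0 were called and 1 had a higher fitted value after hyperoxia over both sexes. *Adam10*, the main sheddase of Notch and of many adhesion molecules, ranged from 63.5 to 117 CPM after hyperoxia (median 87.5) and from 80.3 to 136 CPM in room air (median 99.4). *Adam17*, which releases TNF and EGF receptor ligands, ranged from 49.5 to 74.4 CPM and from 55.2 to 76.7 CPM. *Adam9*, *Adam15* and *Adam19* had medians of 65.9, 55.0 and 86.0 CPM after hyperoxia and 72.4, 57.8 and 92.5 CPM in room air. *Adam8*, found on leukocytes, ranged from 21.2 to 26.8 CPM and from 21.6 to 31.2 CPM. The medians after hyperoxia and in room air were 32.9 and 35.3 CPM for *Adam12*, 29.0 and 26.9 CPM for *Adam28*, and 25.3 and 25.7 CPM for *Adam33*. *Adam23*, an adhesion protein without protease activity, had medians of 64.1 and 68.3 CPM.

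In the ADAMTS group *Adamts1* differed most by p. Its 6 hyperoxia-exposed lungs stood at 66.1 to 178 CPM (median 130) and its 6 room air lungs at 93.3 to 277 CPM (median 171). The log2 change was −0.48 (standard error 0.19, unadjusted p = 0.0157, adjusted p = 0.927, edgeR). Over 21 alternatives it stayed between −0.58 and −0.34, with adjusted p from 0.216 to 1.00. *Adamts9*, a related proteoglycanase, stood at 91.1 to 163 CPM after hyperoxia and 111 to 228 CPM in room air, a log2 change of −0.32 (adjusted p = 0.927, edgeR) that was −0.20 without hyperoxia-exposed male 2. *Adamts2*, which trims procollagens, had medians of 106 and 109 CPM, and *Adamts10*, which binds fibrillin microfibrils, 187 and 173 CPM. *Adamts4* and *Adamts5*, the classical aggrecanases, had 18.9 and 17.3 CPM and 30.8 and 32.6 CPM. *Adamts13*, which cuts von Willebrand factor, had 24.3 and 21.2 CPM.

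In the 3 against 3 females 0 members were called, beside 1 of all genes tested (0.00218%). The count over all genes depended on the method: DESeq2 called 44 genes and 0 members, and RUVr with 1 factor, a method that fits an unlabelled factor, called 1898 genes (4.14%) and 2 members. At an unadjusted p under 0.05, 6 members were higher and 4 lower, 10 of 79 beside 12.6% of all genes. Single lungs moved these counts: they were 18 and 8 without room air female 6, where 206 genes were called over all, and 2 and 1 without room air female 5. Of the 56 members with a background share under 50%, 2 were higher and 4 lower, beside 14.7% of protein-coding genes under that share. The groups of lungs did not overlap in 15 of 79 members, beside 17.2% of all genes. *Adamts1* stood at 133, 109 and 178 CPM in hyperoxia-exposed females 2, 4 and 5 and at 252, 277 and 199 CPM in room air females 2, 5 and 6. All hyperoxia-exposed values lay under all room air values, with a log2 change of −0.79 (standard error 0.26, adjusted p = 0.339, edgeR). The value was −0.50 without the 3 lungs of low *Gm10800* share, which leaves 1 room air female, and −0.42 when the receptor share of each lung entered as a covariate. That share ran from 0.669% to 0.847% in hyperoxia-exposed females and from 0.410% to 0.739% in room air females. The covariate and the exposure thus cannot be fully told apart in females.

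The other members lower at an unadjusted p under 0.05 in females were *Adamts9*, *Mmp23* and *Adam10*, whose groups overlapped in *Adam10*. In all, 34 of the 56 members under a background share of 50% had lower fitted values and 22 higher. Of all protein-coding genes under that share, 5583 of 16419 were higher. *Adamts9* had 120, 118 and 146 CPM after hyperoxia against 191, 228 and 163 CPM, a log2 change of −0.60 (adjusted p = 0.361, edgeR). The corresponding values of *Mmp23* were 10.2, 9.27 and 8.59 CPM against 12.8, 15.3 and 10.7 CPM (log2 change −0.47, adjusted p = 0.357, edgeR). In *Adamts9* and *Mmp23* the groups did not overlap. With the receptor covariate the values were −0.25 for *Adamts9*, −0.15 for *Mmp23* and −0.028 for *Adam10*, and without the 3 lungs −0.35, −0.18 and −0.11. After background subtraction they were −0.47, −0.52 and −0.27. *Adam3*, a testis gene needed for sperm function, was higher instead, with 11.2, 14.5 and 10.5 CPM against 8.26, 8.08 and 9.56 CPM (log2 change 0.48, adjusted p = 0.354, edgeR). *Adamts13* was also higher, with 24.7, 23.9 and 25.9 CPM against 21.1, 17.4 and 21.3 CPM (log2 change 0.32, adjusted p = 0.386, edgeR). With the receptor covariate *Adam3* stood at 0.31 and *Adamts13* at 0.14, and without the 3 lungs at 0.33 and 0.23. After background subtraction they stood at 0.73 and 0.50. With RUVr the adjusted p of *Adam3*, *Mmp23* and *Adamts13* was 0.0156, 0.0138 and 0.0227, each at a fold under 1.5. The highest over the alternatives, not counting the fit without the 3 lungs, was 0.940, 0.995 and 0.990. The other 4 members that were higher at an unadjusted p under 0.05 all had background shares of 50% or more.

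Marker lists also lay apart between these females. The 11 epithelial markers summed to 10130 to 11060 CPM after hyperoxia and 11230 to 21900 CPM in room air, with 0 of 11 higher. The 9 markers of monocytes and interstitial macrophages summed to 215 to 242 CPM and 266 to 305 CPM, with 0 of 9 higher, and 1 of these 9 was called lower over both sexes. The 8 cardiac muscle markers summed to 127 to 159 CPM and 240 to 269 CPM. The 8 thymus markers were the other way, at 88.2 to 115 CPM after hyperoxia and 74.8 to 82.5 CPM in room air, with 8 of 8 higher. In these 4 lists the groups of sums did not overlap. Over all protein-coding genes with a background share under 25%, 1268 of 9552 were higher after hyperoxia in females. Of those at 50% or more, 3948 of 4531 were higher. The part of these lists in the values of *Adamts1*, *Adamts9*, *Mmp23* and *Adam10* was not tested.

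In the 3 against 3 males 0 members were called, beside 0.0% of all genes, and 0 had an unadjusted p under 0.05, beside 2.7% of all genes. Without hyperoxia-exposed male 2, 6 members were higher and 2 lower at that level. The groups did not overlap in 7 members (8.86%), beside 6.62% of all genes. *Mmp19*, an MMP of epithelium and macrophages, stood at 19.7, 17.2 and 19.8 CPM in hyperoxia-exposed males 1, 2 and 3 and at 16.1, 16.2 and 14.9 CPM in room air males 1, 4 and 5. Its log2 change was 0.27 (adjusted p = 1.00, edgeR). *Adamts8*, *Adam15*, *Adam3* and *Adam32* followed by p, with log2 changes of 0.28, 0.26, −0.28 and −0.30 (adjusted p = 1.00 each, edgeR). These 4 values moved by over 1.5 times with single lungs. Without hyperoxia-exposed male 1 they were 0.11, 0.13, −0.14 and −0.16. Without hyperoxia-exposed male 2 *Adamts8*, *Adam15* and *Adam32* stood at 0.46, 0.46 and −0.43, and without room air male 1 *Adam3* stood at −0.16 and *Adamts8* at 0.18. The male and female comparisons share no lungs, and *Adam3* had opposite signs in them.

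**Figure D3:**
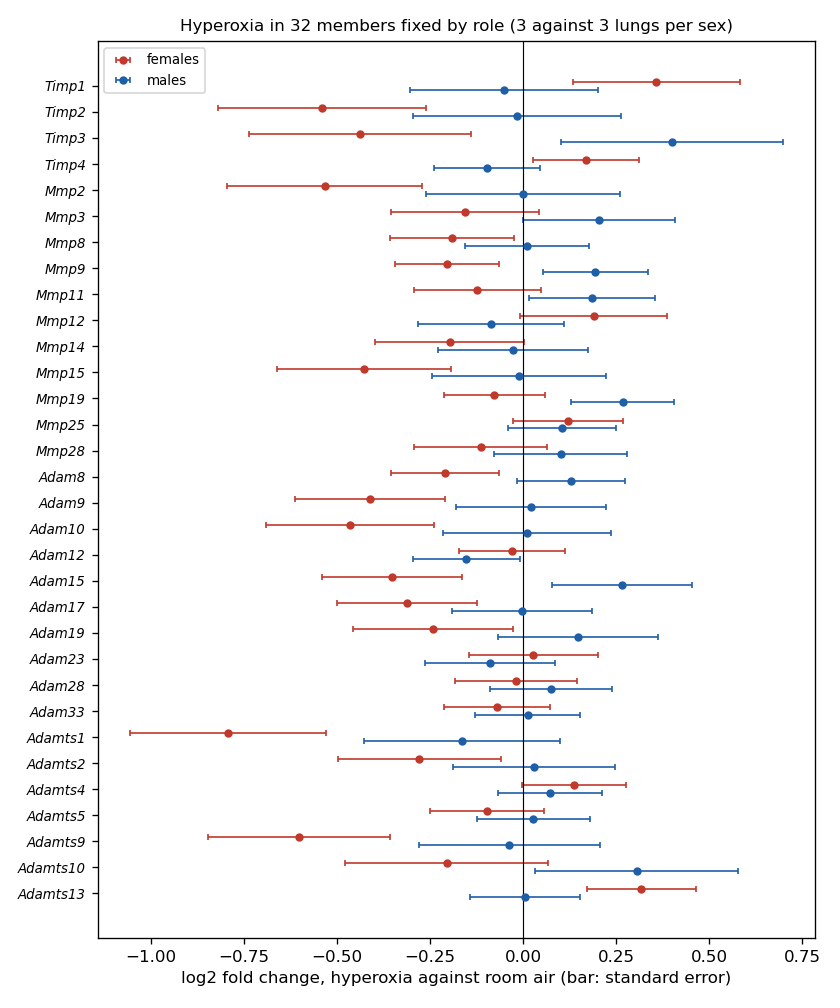
Log2 fold change of 32 members fixed by role, hyperoxia against room air, in females and males, with bars of 1 standard error from the edgeR fit. In females *Adamts1* is the lowest at −0.79, and in males the values lie between −0.16 for *Adamts1* and 0.40 for *Timp3*. None of the 64 values was called.

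The female values were ordered by background share. Over the 79 members, the log2 change in females had a Pearson's r of 0.687 and a Spearman's rho of 0.751 with the background share, and in males r was −0.569 and rho −0.535. These are descriptions across genes, which share the libraries and their depth. The 23 members near background had a median log2 change of 0.33 in females, with 20 of 23 higher, and of −0.19 in males, with 2 of 23 higher. The 29 members with a share under 25% had medians of −0.21 (3 of 29 higher) and 0.029 (18 of 29 higher). All protein-coding genes divided alike: those under 25% had medians of −0.26 in females and 0.048 in males, and those at 50% or more had 0.32 and −0.10.

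**Figure D4:**
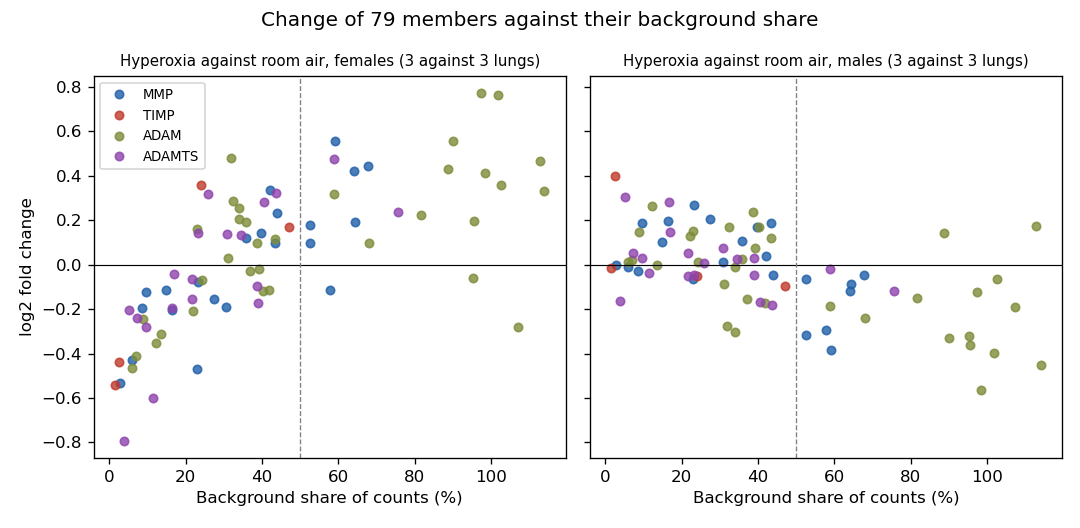
Log2 fold change, hyperoxia against room air, of the 79 members against the share of their counts expected from background, for females (left) and males (right). In females members with a low share are mostly below 0 and those past the dashed line at 50% mostly above, with r = 0.687. In males r is −0.569.

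For the members under a share of 50%, the median in females was −0.087, with 22 of 56 higher, and in males 0.025, with 34 of 56 higher. Over the protein-coding genes under that share the medians were −0.13 in females and 0.028 in males. The female median of the members was −0.051 without room air female 5. It was −0.19 with DESeq2 (19 of 56 higher), −0.13 with TMM and −0.015 with 10 counts in every library. After background subtraction it was 0.0062 (29 of 56 higher). The male median was −0.00026 without hyperoxia-exposed male 1, 0.016 without room air male 1, and 0.078, 0.049, 0.086 and 0.041 without room air males 4 and 5 and hyperoxia-exposed males 2 and 3. With the receptor covariate the female median was −0.0024 and the male one 0.025. The 3 lungs with a low *Gm10800* share had receptor shares of 0.410%, 0.516% and 0.515%, the lowest of all 12. Without them, which leaves room air female 6 as the only room air female, the medians were −0.010 in females and −0.0018 in males. For *Timp2* in females the log2 change of −0.54 became 0.015 without them, and for *Mmp2* −0.53 became 0.011. Room air female 6 had the lowest *Timp2* and *Mmp2* of the room air females, at 250 and 122 CPM.

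The difference between the female and male responses, tested as an interaction, called 0 members and 0.0% of all genes. At an unadjusted p under 0.05, 7 members were more positive in females and 1 more negative, 8 of 79 beside 8.46% of all genes. Without hyperoxia-exposed male 2 these counts were 11 and 15, without room air female 6 they were 14 and 6, and without hyperoxia-exposed male 1 they were 3 and 0. With RUVr 4 members were called, beside 4.59% of all genes. The 1 more negative was *Adam15*, an adhesion-linked ADAM of endothelium and epithelium, and it stood at 55.8, 47.5 and 54.2 CPM in hyperoxia-exposed females and 67.2, 72.4 and 61.5 CPM in room air females. In males these values were 71.6, 43.1 and 65.5 CPM and 43.7, 52.5 and 54.1 CPM, which overlapped. The interaction was −0.62 on the log2 scale (standard error 0.27, adjusted p = 0.578, edgeR). It ran from −0.82 to −0.29 over the alternatives, with adjusted p from 0.000445 (RUVr) to 1.00, and *Adam15* was chosen after its values were seen.

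Females and males differed in 1 member, *Timp1*, beside 1.22% of all genes tested. *Timp1* (ENSMUSG00000001131, chrX:20870166-20874735 of mm10) had 4.94, 4.96 and 5.06 CPM in room air females 2, 5 and 6 and 6.39, 5.82 and 6.96 CPM in hyperoxia-exposed females 2, 4 and 5. Room air males 1, 4 and 5 had 3.32, 2.61 and 3.37 CPM, and hyperoxia-exposed males 1, 2 and 3 had 2.73, 3.81 and 2.58 CPM. Every female lung lay above every male lung, and groups that do not overlap, in either direction, were found in 1.2% of all genes. The means were 5.69 ± 0.85 and 3.07 ± 0.50 CPM (SD, n = 6 each). The log2 difference, female minus male, was 0.89 (standard error 0.17, adjusted p = 0.00252, edgeR). Leaving out any 1 lung kept it between 0.84 and 0.97, with adjusted p up to 0.0134. These levels rested on 30 to 81 counts per lung.

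*Timp1* is X-linked and lies within the synapsin gene *Syn1*, on the opposite strand. Of 452 X-linked protein-coding genes with a background share under 50%, 104 were called higher in females (23%), while of 43934 autosomal genes 13 were called (0.0296%). *Syn1* itself averaged 15.4 CPM in females and 8.60 CPM in males and was called too. Reads from a gene and an overlapping gene on the other strand cannot be told apart without strand. On 241 X-linked genes at background, the read density in males was 0.490 times that in females. With this X-linked background taken off, *Timp1* stood at 4.73 CPM in females (3.96 to 5.79) and 2.55 CPM in males (2.07 to 3.21), a log2 ratio of 0.89. The part of *Syn1* reads in the difference was not tested.

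*Adamts1* was the next member by p and was chosen here after its values were seen. Its 6 female lungs ranged from 109 to 277 CPM (median 189) and its 6 male lungs from 66.1 to 144 CPM (median 127). The ranges overlapped, and the log2 difference, female minus male, was 0.68 (adjusted p = 0.0663, edgeR). It passed the call rule with DESeq2 (adjusted p = 0.0181), with background subtracted (0.0410), without room air female 6 (0.0338) and without hyperoxia-exposed male 1 (0.0165). In the other alternatives it did not, and the adjusted p over all 19 ran up to 0.342. At an unadjusted p under 0.05, 2 members were higher in females and 3 lower, 5 of 79 beside 6.88% of all genes. These counts were 2 and 0 without room air male 1, room air female 2 or hyperoxia-exposed male 2, 2 and 1 without room air female 5 or hyperoxia-exposed male 3, and 4 and 7 without hyperoxia-exposed male 1.

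Genes that act with these enzymes were read from lists chosen for their roles. Of 33 tested activators, cofactors and inhibitors, 0 were called over both sexes, and 0 were higher at an unadjusted p under 0.05. *Bsg*, which induces MMPs, was lower at that level, with a log2 change of −0.34 (adjusted p = 0.927, edgeR). In females *Plaur*, the urokinase receptor, had the smallest p, with a log2 change of −0.56 (adjusted p = 0.339, edgeR). Of 34 tested substrates 0 were called, and 0 were higher and 4 lower at an unadjusted p under 0.05, beside 5.2% of all genes. The fibrillar collagens *Col1a1* and *Col3a1* had log2 changes of −0.53 and −0.54 and *Col1a2* −0.42 (adjusted p = 0.927 each, edgeR). *Vcan*, the proteoglycan that *Adamts1* and *Adamts9* cut, had −0.24 (adjusted p = 0.927, edgeR), with a background share of 44.4%. The median log2 change was −0.091 for the first list and −0.16 for the substrates, beside −0.049 for protein-coding genes under a background share of 50% and −0.10 for those under 25%. The median background share was 15.6% in the first list and 10.99% in the substrates.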

How the data were processed

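Lung RNA-Seq of 12 *miR-30a*-/- animals was used, 3 per group as labelled. The deposited values are raw counts for each gene; per the labels, the authors used Trim Galore for trimming, STAR for alignment (mm10) and featureCounts for counting. Whether strand was used is not given in the sources used here. The study's methods name a QIAseq stranded kit and the labels a NEBNext directional kit. No molecular identifiers are described, so floors cover counting error only.

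Counts were fitted with edgeR 4.0.16 (robust quasi-likelihood, upper-quartile normalization, filterByExpr, 4 groups; R 4.3.3), on 45828 genes, with adjustment over all of them. Log2 fold changes come from this fit. GENCODE mouse release 21 gave exon lengths and UTRs, with 79 of 79 members found. No replicates agreed within counting noise. Named genes were 32 fixed by role, called members, members whose exposures did not overlap, the 5 smallest p above background per comparison and the 3 highest levels. Members and lists were chosen with earlier results of these data known. The alternatives included TMM, DESeq2 1.42.0, other filters, RUVr (with 1 factor), background subtracted or as a covariate, and lungs left out. WT lungs were not analysed here. The result of 1 listed gene is not reported here.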

Additional observations from a re-analysis of the deposited data

Results flagged for a closer look

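In 38 named genes, 76 groups of 6 lungs were searched for a highest or lowest lung that stood apart from the other 5, and 5 such lungs were found, where chance gives about 1 group in 20. *Adam12* stood at 29.4 CPM in room air female 5, against 34.1 to 37.1 CPM in the other room air lungs. *Adam32* stood at 6.87 CPM in the same lung, against 10.6 to 12.6 CPM. *Adam33* stood at 30.4 CPM in room air male 5, against 25.2 to 26.6 CPM. *Mmp24* stood at 16.6 CPM in hyperoxia-exposed female 5, against 12.95 to 14.0 CPM, and *Timp4* at 13 CPM in hyperoxia-exposed male 1, against 14.8 to 15.9 CPM. Room air female 5 and hyperoxia-exposed male 1 are 2 of the 3 lungs with a low *Gm10800* share.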

How the results depend on the processing

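The counts of members called under hyperoxia stayed at 0 over both sexes and in males in every alternative run. In females RUVr with 1 factor called 2, *Adam24* and *Adam39*, and its interaction called 4, *Adam3*, *Adam39*, *Adam15* and *Timp3*, all named after their values were seen. There *Adam15* had −0.60 (adjusted p = 0.000445). Over all genes RUVr called 4.14% in females and 4.59% in the interaction. By adjusted p alone RUVr passed 5 members (of 2066 genes) over both sexes, *Timp2* and *Mmp2* among them, 18 (of 7667) in females, *Adam3*, *Mmp23* and *Adamts13* among them, and 15 (of 5363) in the interaction. The cause was not tested. The sex comparison called 2 members with DESeq2 and with background subtracted, and 1 to 2 with each lung left out in turn (2 without room air female 6 or hyperoxia-exposed male 1). The added one was *Adamts1*, at log2 differences of 0.72, 0.67, 0.75 and 0.77. At a limit of 25% in place of 50%, 50 members counted as near background. The log2 change of *Timp3* over both sexes turned to 0.011 with 10 counts in every library, 0.063 after subtraction of the background, 0.17 with the receptor covariate, 0.049 without the 3 lungs of low *Gm10800* share (an alternative chosen after seeing the data), and ran from −0.13 to 0.12 with each lung left out. It was above 0 without room air male 4 (0.074), room air female 5 (0.070), hyperoxia-exposed male 2 (0.12) or hyperoxia-exposed female 4 (0.024). Of the values of single genes, 461 kept their direction and their side of the call rule, and 125 counts and medians stayed within their limits. With the animal number as a replicate block in females, 0 members were called in females and over both sexes; the numbers do not pair animals (r = 0.0978 and −0.216 for the shared numbers).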
